A study of Homo sapiens with 16 samples.

Results

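The genes of the SREBP sensing machinery were followed in 16 RNA sequencing libraries from a pair of human colorectal cancer cell lines, HT55 and SW948, both long established. The set was chosen by function, as the SREBP factors and the genes for their escort, retention and protease proteins, and holds 7 of the 54127 genes in the count files. Its members are SREBF1, SREBF2, SCAP, INSIG1, INSIG2, MBTPS1 and MBTPS2, and each was matched by symbol to 1 Ensembl identifier. Each line was given DMSO or itraconazole, which makes 4 groups of 4 libraries. Cells of every group were cultured as adherent layers with foetal bovine serum and antibiotics. Itraconazole, an azole drug used against fungi, was given at 5 µM, the control cells received its solvent DMSO, and RNA was taken after 6 days. Each line stands for 1 tumour. The study's methods describe the replicates of a group as biological, and the labels do not say how these cultures were kept apart, so the p-values measure the spread between these libraries.

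Sterol regulatory element binding proteins, or SREBPs, are transcription factors made as precursors that sit in the membrane of the endoplasmic reticulum (ER). SCAP, which senses cholesterol, binds the precursor and escorts it in COPII vesicles to the Golgi, and INSIG proteins hold SCAP back in the ER when sterols are plentiful. In the Golgi the site-1 protease, encoded by MBTPS1, and then the site-2 protease, encoded by MBTPS2, cut the precursor, and the freed part enters the nucleus and switches on genes of sterol and fatty acid synthesis. INSIG1 and SREBF2 are themselves targets of SREBPs, and SREBF1 is also a target of the oxysterol receptor LXR. Azole antifungals are made to block the fungal form of CYP51, an enzyme of sterol synthesis that human cells also have. Gene counts do not separate transcripts of 1 gene, so the SREBF1 forms 1a and 1c could not be told apart, and RNA levels say nothing of protein cleavage or place in the cell.

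Gene counts per library ran from 8269406 to 11110814, and the members had between 54 counts, for MBTPS2 in a treated SW948 library, and 26288, for INSIG1 in another. All 10 colorectal epithelium markers looked up were above 1 CPM in each group, where CPM is the number of counts in 1000000 gene counts after scaling of library sizes by TMM. Summed levels of 6 fibroblast markers were 1.41 to 2.14 CPM in HT55 controls, 3.33 to 3.98 in treated HT55, 2.54 to 4.69 in SW948 controls and 9.95 to 12.1 in treated SW948, with 1 of the 6 above 1 CPM in each group. For 5 leukocyte markers the sums were 0.217 to 0.849 CPM, 0.870 to 1.14, 0.154 to 0.869 and 1.36 to 2.97 in the same order, and 2 endothelial markers stayed at or below 0.713 CPM. CD3E and COL3A1 were at 0 in every library. Treated libraries lay further apart than controls on the second principal component of log2 CPM. There, replicate 3 of treated HT55 lay at 13.2 against 33.8 to 46.8 for the other treated HT55 libraries, and the HT55 controls lay between -17.0 and -16.0. Replicate 1 of treated SW948 lay at 40.3 against 51.2 to 64.2 for the others, and the SW948 controls lay between -70.8 and -67.6. The share of gene counts from mitochondrially encoded genes was 2.11% to 2.19% in HT55 controls and 2.65% to 3.06% in treated HT55, and 1.06% to 1.48% in SW948 controls and 2.05% to 2.97% in treated SW948. The part of these markers and of that share in the results was not tested. In bulk RNA, fewer cells of a type and less RNA per cell cannot be told apart.

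Promoter sequences are shown for the members that rose in both lines, INSIG1 and SREBF2, and for MBTPS2, which had the steepest fall in SW948. They are RefSeq windows on GRCh38.p14, from 250 bases before the start site to 50 bases from it, printed 5′ to 3′ along the gene's strand. INSIG1 (chr7:155297628-155297927, plus strand) and SREBF2 (chr22:41832855-41833154, plus strand) are followed by MBTPS2 (chrX:21839367-21839666, plus strand). Capitals mark matches to the sterol regulatory element written as TCACNCCAC or to the E-box CACGTG, which do not overlap each other.
INSIG1: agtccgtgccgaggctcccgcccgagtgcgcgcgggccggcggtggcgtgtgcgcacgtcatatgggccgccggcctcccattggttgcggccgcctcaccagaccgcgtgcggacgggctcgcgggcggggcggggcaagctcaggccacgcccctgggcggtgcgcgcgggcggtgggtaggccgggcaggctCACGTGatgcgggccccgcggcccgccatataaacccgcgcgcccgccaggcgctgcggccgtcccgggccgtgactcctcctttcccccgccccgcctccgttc
SREBF2: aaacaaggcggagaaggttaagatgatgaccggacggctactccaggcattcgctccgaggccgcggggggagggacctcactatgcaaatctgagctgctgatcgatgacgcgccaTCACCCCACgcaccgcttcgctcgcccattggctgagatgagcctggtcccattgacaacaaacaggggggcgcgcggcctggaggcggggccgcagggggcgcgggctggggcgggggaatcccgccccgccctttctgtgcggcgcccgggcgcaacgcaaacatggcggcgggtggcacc
MBTPS2: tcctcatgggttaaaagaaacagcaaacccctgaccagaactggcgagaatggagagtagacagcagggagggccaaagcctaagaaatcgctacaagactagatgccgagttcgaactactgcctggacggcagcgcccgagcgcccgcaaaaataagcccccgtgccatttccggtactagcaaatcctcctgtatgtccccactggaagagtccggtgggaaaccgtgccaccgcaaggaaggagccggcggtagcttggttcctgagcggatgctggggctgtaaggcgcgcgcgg

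Motifs were searched on both strands in 35116 windows of this length. SREBF2 was the member whose window held TCACNCCAC, with TCACCCCAC at position -133 from the start site, and 1.13% of all windows held that motif. For SREBF1 the search covered 1 window at 1 start site, and any other start site of that gene was not searched. CACGTG lay in the INSIG1 window at position -55 and in the SCAP window at position -58, and 7.26% of all windows held it. The CCAAT box, written CCAAT, was found in the INSIG1 and SREBF2 windows (34.6% of all windows). The GC box GGGCGG was found 6 times in INSIG1, 4 times in SCAP, 3 times each in SREBF1 and SREBF2 and once in each of the overlapping INSIG2 windows (45.0% of all windows), and neighbouring GC boxes in INSIG1 and SREBF2 share a base. The MBTPS1 and MBTPS2 windows held none of the 4 motifs. A match describes letters in a window and not a bound site, and no match says only that these letters are not in that window.

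The first comparison asked how the sensing genes responded to itraconazole in each line. INSIG1 and SREBF2 rose in both lines, and INSIG1 rose most of the 7 members in each. SREBF1 fell in HT55 and rose in SW948. SCAP and INSIG2 rose in HT55 and fell in SW948. Both protease genes fell in SW948 and neither passed the test in HT55. In total 5 of 7 members changed in HT55 at a Benjamini-Hochberg adjusted p under 0.05 in the edgeR quasi-likelihood test, 4 upwards and 1 downwards, where 54.0% of the 12133 genes tested changed (27.5% upwards and 26.5% downwards). In SW948, 7 of 7 members changed, 3 upwards and 4 downwards, where 80.2% of the 12505 genes tested changed (38.9% upwards and 41.3% downwards). All 7 members passed the low count filter in both lines. On plain library totals, without a TMM factor, the median log2 fold change of all genes moved from -0.015 to -0.18 in HT55 and from -0.025 to -0.35 in SW948. The share of rises among changed genes moved with it, from 51.0% to 32.6% in HT55 and from 48.5% to 31.5% in SW948. On that scale HT55 had 2 members up and 2 down, and SW948 had 2 up and 4 down.

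**Figure D1:**
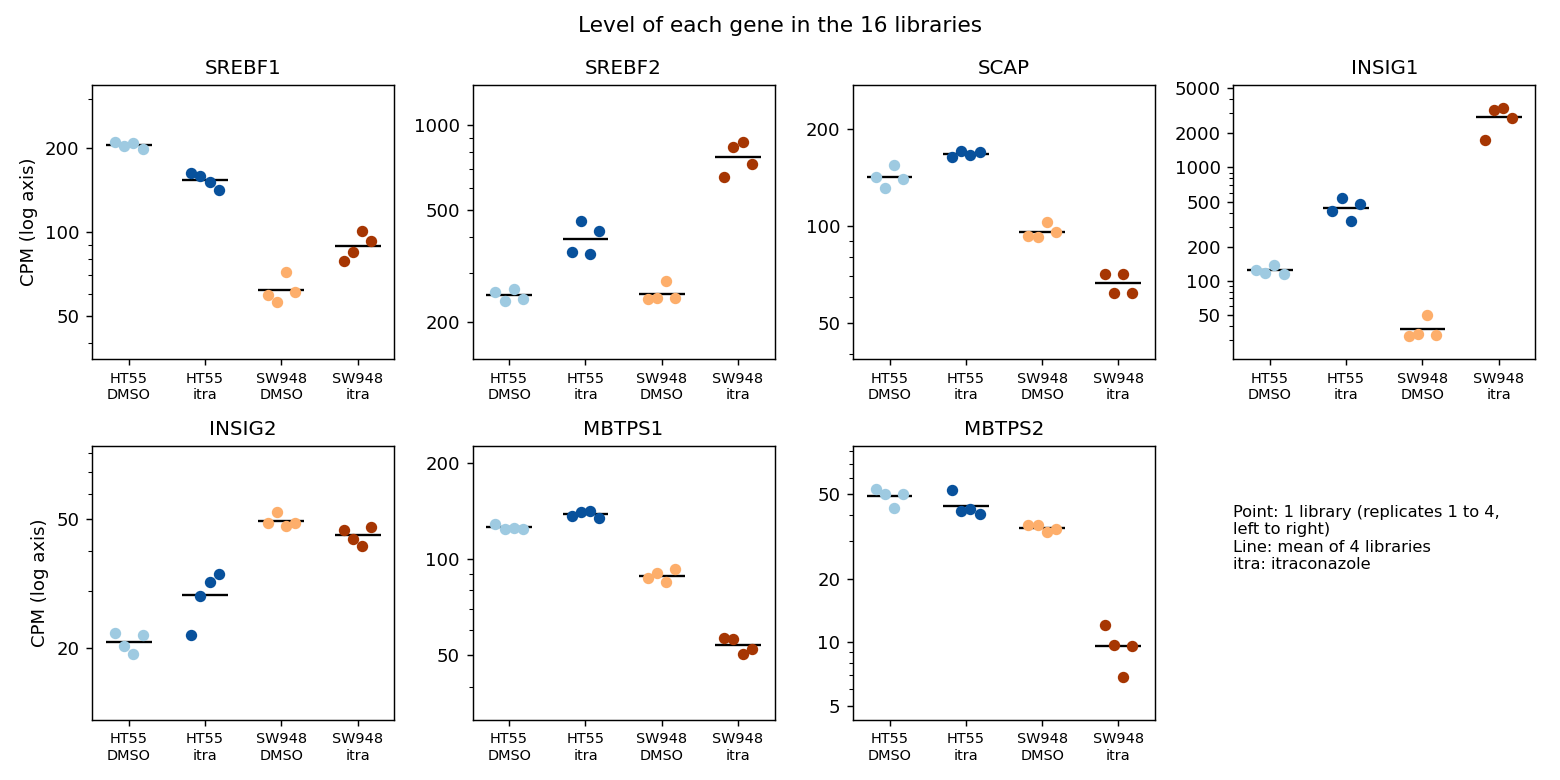
CPM of each of the 7 genes on a log axis in the 4 groups, with 1 point per library (replicates 1 to 4 from left to right) and a line at the mean of 4. INSIG1 spans from 32.6 CPM in an SW948 control to 3345 CPM in a treated SW948 library, while MBTPS2 has its lowest values in treated SW948.

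INSIG1 encodes the retention protein that is itself made on demand of SREBP (chromosome 7, 155089486 to 155101945, plus strand, GRCh37, protein coding). In HT55 its level was 125, 118, 138 and 115 CPM in control replicates 1 to 4 and 414, 541, 337 and 476 CPM in treated replicates 1 to 4. In SW948 it was 32.6, 34.2, 50.2 and 32.99 CPM in controls and 1763, 3244, 3345 and 2726 CPM after treatment. Treated and control libraries did not overlap in either line, and the SW948 controls were the lowest of all groups and the treated SW948 libraries the highest. Within the treated groups the lowest INSIG1 values were in HT55 replicate 3 and SW948 replicate 1, the libraries that lay nearest to their controls on the second principal component. The fold change was 3.55 in HT55 (log2 fold change 1.83 ± 0.13, SE; adjusted p = 5.89e-06) and 72.3 in SW948 (log2 fold change 6.18 ± 0.22, SE; adjusted p = 4.31e-11). Of all genes tested, 2.04% had a larger absolute log2 fold change in HT55 and 0.08% in SW948. Without replicate 3 of treated HT55 the log2 fold change was 1.95, and without replicate 1 of treated SW948 it was 6.36. Replicate 3 of the SW948 controls had the highest INSIG1 of its group, and without it the log2 fold change was 6.34.

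INSIG2 encodes the other retention protein (chromosome 2, 118846028 to 118868573, plus strand), which is less bound to SREBP activity in most tissues. In HT55 it stood at 22.3, 20.3, 19.2 and 21.9 CPM in controls and at 21.97, 29.04, 31.98 and 33.9 CPM after treatment. The treated HT55 range began within the control range, because treated replicate 1 was at the control level and the other 3 lay above it. In SW948 INSIG2 stood at 48.7, 52.7, 47.6 and 48.8 CPM in controls and 46.2, 43.3, 41.2 and 47.4 CPM after treatment, and the treated libraries lay just below the controls. The log2 fold change was 0.48 ± 0.13 (SE) in HT55 with an adjusted p of 0.0105 and -0.18 ± 0.071 (SE) in SW948 with an adjusted p of 0.0301. The SW948 fall was small and did not pass with DESeq2 (adjusted p = 0.0693), with DESeq2 size factors (0.0525), without the low count filter (0.0502) or in 1 fit of all 16 libraries (0.176), and it did not pass without control replicate 2 (0.0835), control replicate 4 (0.0516), treated replicate 2 (0.0851) or treated replicate 3 (0.0935, adjusted p in each case). The HT55 rise was lost on plain totals (log2 fold change 0.32, adjusted p = 0.0776), where the SW948 fall was larger (-0.51).

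SREBF2 encodes SREBP-2, the factor that mostly serves cholesterol synthesis and uptake (chromosome 22, 42229109 to 42303310, plus strand). Its CPM values were 256, 237, 262 and 242 in HT55 controls and 355, 456, 349 and 421 in treated HT55. The SW948 values were 241, 244, 279 and 245 CPM in controls and 656, 834, 868 and 729 CPM in treated libraries. Groups did not overlap within a line, and the controls of the lines covered much the same range. SREBF2 rose 1.58-fold in HT55 (log2 fold change 0.66 ± 0.092, SE; adjusted p = 0.000217) and 2.99-fold in SW948 (log2 fold change 1.58 ± 0.091, SE; adjusted p = 1.99e-09). As with INSIG1, treated HT55 replicate 3 and treated SW948 replicate 1 were the lowest treated libraries, and control replicate 3 was the highest SW948 control.

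SREBF1 encodes SREBP-1, whose forms mostly serve fatty acid synthesis (chromosome 17, 17713713 to 17740316, minus strand). Control HT55 libraries had 211, 205, 209 and 199.9 CPM and treated ones 163, 159, 151 and 142 CPM, so every treated library lay below every control. The SW948 controls had 59.6, 56.1, 72.1 and 60.8 CPM and the treated libraries 78.8, 85.02, 101 and 93.3 CPM, with all treated libraries above all controls. The log2 fold change was -0.43 ± 0.061 (SE) in HT55 with an adjusted p of 0.000261 and 0.49 ± 0.091 (SE) in SW948 with an adjusted p of 0.000198. On plain library totals the SW948 rise was 0.16 and did not pass (adjusted p = 0.114), while the HT55 fall was -0.59 and passed. Part of the SREBF1 exons, 6.75% of their length in the annotation used here, lies over exons of RAI1 on the opposite strand, and the strand setting of the counting is not given in the sources used here.

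SCAP, the escort gene (chromosome 3, 47455171 to 47518616, minus strand), rose slightly in HT55, from 142, 131, 154 and 139.9 CPM in controls to 164, 171, 166 and 169 CPM after treatment. In SW948 it went from 92.9, 92.5, 102 and 95.5 CPM to 71.02, 62.1, 71.1 and 61.8 CPM, and the groups of each line did not overlap. The log2 fold change was 0.24 ± 0.063 (SE) in HT55 with an adjusted p of 0.0088, a rise that was lost on plain totals (0.072, adjusted p = 0.353). In SW948 SCAP fell, with a log2 fold change of -0.56 ± 0.071 (SE; adjusted p = 5.18e-06).

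The protease genes come last in the order of action. MBTPS1, for the site-1 protease (chromosome 16, 84087366 to 84150547, minus strand), had 128, 124, 125 and 124 CPM in HT55 controls and 136, 139.8, 141 and 134 CPM in treated HT55. Its SW948 values were 87.1, 90.2, 84.5 and 92.8 CPM in controls and 56.7, 56.2, 50.4 and 52.3 CPM after treatment. The treated libraries lay above the controls in HT55 and below them in SW948, without overlap. The HT55 difference was small (log2 fold change 0.13 ± 0.053, SE) and missed the threshold (adjusted p = 0.0557). It passed with DESeq2 size factors (adjusted p = 0.0407), with the DESeq2 test (0.0246), without mitochondrial and the 20 most counted genes (0.0479) and without treated replicate 3 (0.0413), while with plain totals in place of TMM it turned to -0.034. In SW948 MBTPS1 fell to 0.595 of its control level (log2 fold change -0.75 ± 0.067, SE; adjusted p = 1.42e-07).

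MBTPS2, for the site-2 protease (chromosome X, 21857735 to 21903541, plus strand), had its lowest values in treated SW948. HT55 libraries had 53.2, 50.1, 43.2 and 50.1 CPM in controls and 52.3, 41.6, 42.7 and 40.3 CPM after treatment, and these groups overlapped. SW948 controls had 35.7, 35.96, 33.3 and 34.2 CPM and treated libraries 12.02, 9.68, 6.87 and 9.61 CPM, so every treated library lay far below every control. The log2 fold change in HT55 was -0.16 ± 0.1 (SE) and did not pass (adjusted p = 0.204). It passed on plain library totals (-0.32, adjusted p = 0.0213) and without treated replicate 1 (-0.24, adjusted p = 0.0461). In SW948 MBTPS2 fell to 0.271 of its control level (log2 fold change -1.88 ± 0.13, SE; adjusted p = 7.88e-09), and 11.2% of the genes tested had a larger absolute change. Of the MBTPS2 exons 12.2% of the length overlaps YY2 on the same strand, where htseq-count sets reads apart as ambiguous, and YY2 itself held 95 counts over the 16 libraries.

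**Figure D2:**
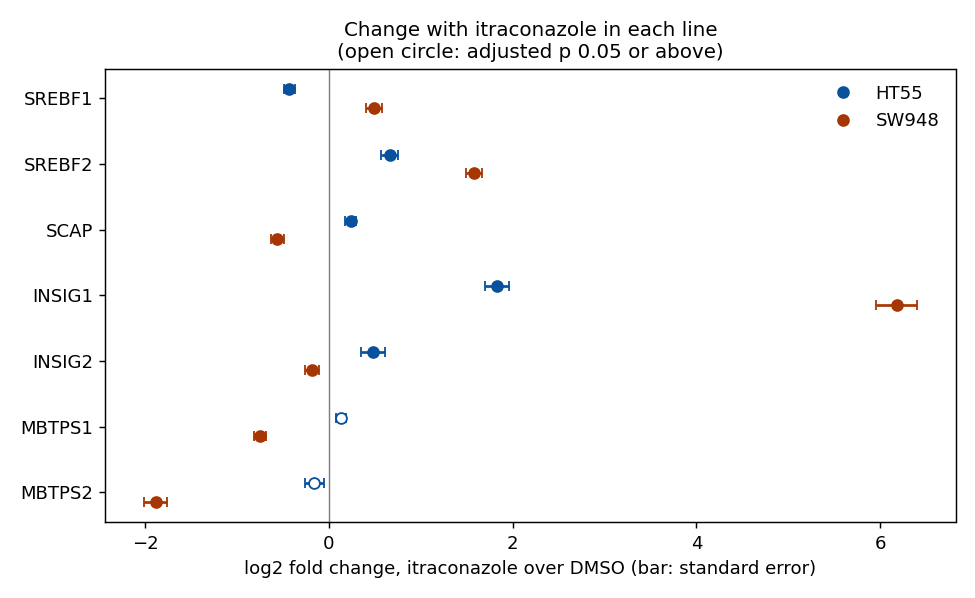
Log2 fold change of itraconazole over DMSO for the 7 genes in HT55 (blue) and SW948 (brown), with standard errors, from separate edgeR fits of the 8 libraries of each line. Open circles mark MBTPS1 and MBTPS2 in HT55, whose adjusted p was 0.0557 and 0.204, and INSIG1 in SW948 stands at 6.18.

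The difference between the responses was tested directly as the interaction of line and treatment over all 16 libraries. All 7 members passed, 3 with the higher value in SW948 and 4 with the lower, where 53.9% of the 13249 genes tested passed (24.8% and 29.1%). The SW948 change minus the HT55 change, on the log2 scale, was 4.37 ± 0.26 (SE) for INSIG1 (adjusted p = 7.80e-10). It was 0.95 ± 0.14 for SREBF2 and 0.95 ± 0.12 for SREBF1 (adjusted p = 1.02e-05 and 1.84e-06), nearly the same amount for both factor genes. For the escort and INSIG2 it was -0.77 ± 0.096 and -0.63 ± 0.15 (adjusted p = 2.20e-06 and 0.00123). The protease genes gave -0.85 ± 0.082 for MBTPS1 and -1.70 ± 0.17 for MBTPS2 (adjusted p = 1.20e-07 and 1.43e-07). All 7 also passed on plain library totals, in the same direction.

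The lines were then compared with each other, before and after treatment. Among DMSO controls 6 of 7 members differed between the lines, 5 of them higher in HT55 and 1 lower, where 84.2% of the 12820 genes tested did (41.6% and 42.6%). INSIG1 was 3.31-fold higher in HT55 controls than in SW948 controls and SREBF1 3.31-fold higher (adjusted p = 4.88e-15 and 2.36e-19). SCAP, MBTPS1 and MBTPS2 were 1.47-fold, 1.41-fold and 1.41-fold higher in HT55, and INSIG2 in HT55 was 0.422 of the SW948 level (adjusted p = 7.10e-15). SREBF2 had a log2 difference of -0.021 ± 0.047 (SE), which did not pass (adjusted p = 0.681). On plain library totals SREBF2 was lower in HT55 by a log2 difference of -0.21 that passed (adjusted p = 0.000279).

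After itraconazole all 7 members differed between the lines, 4 higher in HT55 and 3 lower, where 76.6% of the 12353 genes tested did (38.8% and 37.8%). INSIG1 stood the other way round than in controls, with HT55 at 0.159 of the SW948 level (adjusted p = 2.12e-07). SREBF2 in HT55 was 0.510 of the SW948 level (adjusted p = 1.06e-05). MBTPS2 was 4.58-fold higher in treated HT55 than in treated SW948, MBTPS1 2.55-fold, SCAP 2.51-fold and SREBF1 1.71-fold (adjusted p = 1.35e-07, 2.19e-08, 3.79e-08 and 9.53e-06). INSIG2 stayed lower in HT55, at 0.655 of the SW948 level (adjusted p = 0.00108). This comparison shares its libraries with the comparisons of treatment above, so these values are the same measurements seen from the other side.

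Ratios between members within a library do not depend on library size or on TMM. Per kb of exon, the ratio of INSIG1 to INSIG2 RNA was 6.03, 6.28, 7.76 and 5.67 in HT55 controls and 20.3, 20.1, 11.4 and 15.2 in treated HT55. In SW948 controls it was 0.724, 0.702, 1.14 and 0.732, so that the retention genes were near balance, and in treated SW948 it was 41.3, 80.8, 87.6 and 62.2. The treated minus control difference was 1.35 in HT55 and 6.34 in SW948 on the log2 scale, without overlap between groups (two-sided exact permutation p = 0.0286 in each, the smallest that 4 against 4 libraries can give).

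The ratio of SREBF2 to SREBF1 RNA per kb was 1.24, 1.18, 1.28 and 1.24 in HT55 controls and 2.23, 2.94, 2.35 and 3.03 in treated HT55. In SW948 it was 4.14, 4.44, 3.96 and 4.11 in controls and 8.50, 10.03, 8.80 and 7.98 in treated libraries. The lines started from different ratios and both moved towards SREBF2, by 1.08 in HT55 and 1.08 in SW948 on the log2 scale (exact permutation p = 0.0286 in each line, two-sided). In HT55 this came with a fall of SREBF1 and a rise of SREBF2, and in SW948 with rises of both.

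INSIG1 RNA against SCAP RNA, the retention gene against the escort gene, was 1.51, 1.55, 1.55 and 1.42 per kb in HT55 controls and 4.36, 5.45, 3.49 and 4.85 after treatment. The SW948 values were 0.605, 0.637, 0.844 and 0.596 in controls and 42.7, 89.96, 80.9 and 75.9 after treatment, the widest shift of the 4 ratios (log2 difference 6.72, against 1.57 in HT55; two-sided exact permutation p = 0.0286 in each). The ratio of MBTPS1 to MBTPS2 overlapped between the controls of the lines, at 2.10, 2.16, 2.52 and 2.16 in HT55 and 2.12, 2.18, 2.21 and 2.36 in SW948. After treatment it was 2.27, 2.93, 2.87 and 2.90 in HT55, which overlapped its controls (log2 difference 0.29, two-sided exact permutation p = 0.0571). For SW948 the values were 4.09, 5.03, 6.33 and 4.72, above all controls (log2 difference 1.17, p = 0.0286 by the same exact permutation test). The 8 tests were not independent, since ratios share members. After Benjamini-Hochberg adjustment over the 8, the p of 0.0286 that 7 of them reached by exact permutation becomes 0.0327. The ratios use the same counts as the member tests above. Ratios of other gene pairs were not tested, so no share over all pairs stands beside these 7. Of single genes, 54.0% changed in HT55 and 80.2% in SW948 by the edgeR test.

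**Figure D3:**
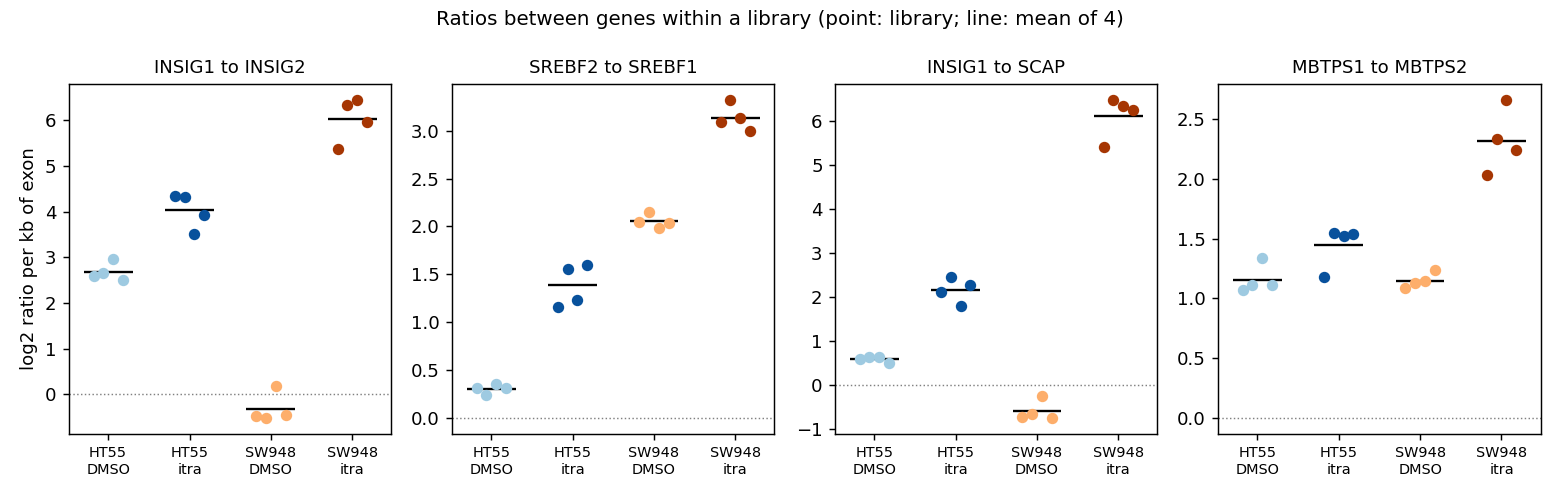
Log2 ratio of RNA per kb of exon between pairs of members in each library, by group, with a line at the mean of 4 and a dotted line at a ratio of 1. INSIG1 to INSIG2 lies around or below the dotted line in SW948 controls and above 5 in treated SW948, and MBTPS1 to MBTPS2 overlaps between HT55 groups.

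Levels were compared between members as RPKM, the CPM per kb of annotated exon. In HT55 controls the order from the top was INSIG1 (33.97 ± 2.81), SREBF2 (30.9 ± 1.46), SREBF1 (25.1 ± 0.620), SCAP (22.5 ± 1.52), MBTPS1 (12.2 ± 0.177), MBTPS2 (5.49 ± 0.472) and INSIG2 (5.30 ± 0.367 RPKM, each a mean ± SD of 4 libraries, as are the values that follow). Values of INSIG1 and SREBF2, of SREBF1 and SCAP, and of MBTPS2 and INSIG2 overlapped between libraries, so these neighbours were not separated by their spread. In treated HT55 the order was INSIG1 (121 ± 23.9 RPKM), SREBF2 (49.1 ± 6.50), SCAP (26.6 ± 0.524), SREBF1 (18.7 ± 1.11), MBTPS1 (13.4 ± 0.308), INSIG2 (7.40 ± 1.33) and MBTPS2 (4.94 ± 0.611), and INSIG2 and MBTPS2 were the neighbours that overlapped.

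In SW948 controls SREBF2 was the highest at 31.3 ± 2.23 RPKM, followed by SCAP (15.2 ± 0.737), INSIG2 (12.5 ± 0.568), INSIG1 (10.3 ± 2.33), MBTPS1 (8.63 ± 0.352), SREBF1 (7.55 ± 0.839) and MBTPS2 (3.89 ± 0.143). From INSIG2 down to SREBF1 each neighbour overlapped the next. In treated SW948 INSIG1 (759 ± 198 RPKM) and SREBF2 (95.8 ± 12.1) stood far above INSIG2 (11.3 ± 0.702), SREBF1 (10.9 ± 1.16) and SCAP (10.6 ± 0.839), which overlapped, and MBTPS1 (5.25 ± 0.298) and MBTPS2 (1.07 ± 0.235) followed. INSIG1 thus went from the fourth place to the first in SW948. The order rests on the length used: with the longest annotated transcript in place of all exons 16 of the 28 places stayed the same, and SREBF2 came before INSIG1 in HT55 controls.

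**Figure D4:**
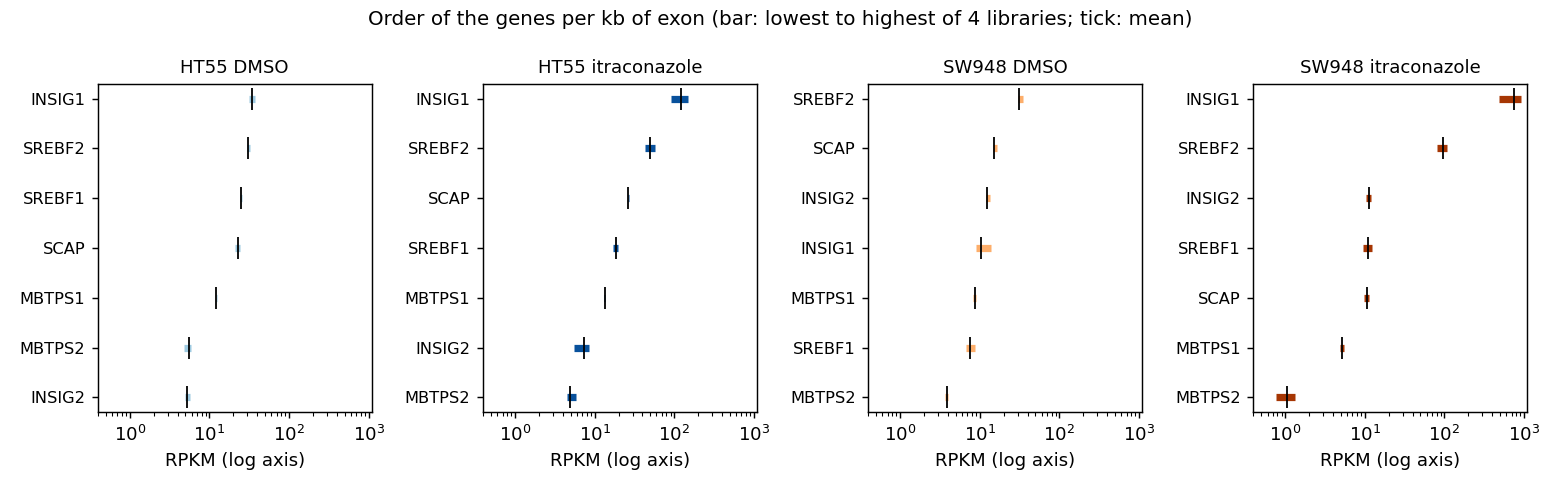
RPKM of the 7 genes on a log axis in each group, ordered by the mean (tick), with a bar from the lowest to the highest of 4 libraries. INSIG1 is at the top in 3 groups and in the fourth place in SW948 controls, and MBTPS2 is at or next to the bottom throughout.

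Other genes of the pathway were grouped by role. Genes listed under ER degradation and sterol switch, ubiquitin ligases among them, moved in both directions. HT55 had 5 rises and 2 falls among 14 tested (median log2 fold change 0.0056), and SW948 had 6 rises and 5 falls (median 0.052), beside medians of -0.015 and -0.025 over all genes tested. In all, 7 of 14 changed in HT55 and 11 of 14 in SW948, shares near those of all genes (54.0% and 80.2%). SPRING1, whose product is needed for a working SCAP and site-1 protease, was higher after treatment in both lines, by 0.99 on the log2 scale in HT55 and 0.94 in SW948 (adjusted p = 4.39e-05 and 2.55e-06). ERLIN2, an ER membrane protein that takes part in protein degradation there, fell in both lines, by 0.60 in HT55 and by 1.44 in SW948 on the log2 scale (adjusted p = 9.00e-05 and 5.28e-08). Without TMM the list had 3 rises and 6 falls in HT55 and 5 and 7 in SW948.

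COPII coat genes, whose products carry SCAP with its cargo out of the ER, mostly rose. HT55 had 8 rises and 0 falls among 12 tested (median log2 fold change 0.32), and SW948 had 9 rises and 3 falls (median 0.58). The shares of rises and falls over all genes were 27.5% and 26.5% in HT55 and 38.9% and 41.3% in SW948, so the calls of all 12 in SW948 stand beside 80.2% called overall. SEC24D and SEC24A, cargo adaptors of the coat, led in both lines. Their log2 fold changes were 1.91 and 1.40 in HT55 (adjusted p = 1.28e-05 and 3.04e-05) and 2.30 and 2.25 in SW948 (adjusted p = 3.39e-11 and 7.40e-11). SEC23B, an inner coat subunit, fell in SW948 (-0.49, adjusted p = 1.89e-06) and had 0.11 in HT55, which did not pass (adjusted p = 0.13). On plain library totals 6 rose and 3 fell in each line.

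Nuclear cofactors of SREBP and genes of its turnover had 8 rises and 2 falls among 11 tested in HT55 (median 0.39) and 5 rises and 2 falls in SW948 (median 0.13, which turned to -0.20 on plain library totals). On those totals the counts were 6 rises and 2 falls in HT55 and 5 rises and 6 falls in SW948. Of all genes 27.5% rose and 26.5% fell in HT55 with TMM, and 38.9% rose and 41.3% fell in SW948. MED15, the Mediator subunit that SREBPs bind, rose by 0.53 in HT55 and by 1.92 in SW948 on the log2 scale (adjusted p = 0.000493 and 3.34e-09). NFYB, part of the CCAAT-binding partner of SREBPs, had -0.50 and -0.43 (adjusted p = 0.00105 and 0.000264). LPIN1, whose product in the nucleus holds SREBP activity down, rose in HT55 (0.69, adjusted p = 0.000255) and in SW948 (0.62, adjusted p = 7.31e-05). SP1, a partner factor of SREBPs, also rose in both lines (0.39 and 0.98, adjusted p = 0.00108 and 1.06e-07). FBXW7, which marks nuclear SREBP for degradation, fell in HT55 (-0.31, adjusted p = 0.0149), but not past the threshold without control replicate 2 (0.0509) or control replicate 4 (0.0566, adjusted p). In SW948 FBXW7 had 0.058, which did not pass (adjusted p = 0.662), and -0.27 on plain totals (adjusted p = 0.0498).

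Other substrates of the same proteases were listed beside MBTPS1 and MBTPS2. Of 8 listed, 6 passed the low count filter in SW948 and these 6 fell (median -0.77), where 41.3% of all genes fell. The smallest of these falls, -0.19, was just under the threshold (adjusted p = 0.0488). Of the 7 that passed the filter in HT55, 1 rose and 2 fell (median -0.0014, or -0.17 on plain totals). ATF6B and CREB3L4, membrane-bound transcription factors, fell in both lines. ATF6B had log2 fold changes of -0.79 and -1.35 (adjusted p = 3.49e-05 and 9.90e-09) and CREB3L4 of -0.90 and -1.47 (adjusted p = 0.000635 and 1.02e-05). CREB3L3, a related factor, rose in HT55 (1.85, adjusted p = 0.00168) and did not pass the low count filter in SW948. It did not pass that filter in the comparison of the DMSO controls either. Its HT55 test thus rests on counts in the treated libraries, and the size of the rise is uncertain.

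Targets of SREBP in cholesterol synthesis and uptake had 21 rises and 1 fall among 23 tested in each line, where 27.5% of all genes rose in HT55 and 38.9% in SW948. Their median log2 fold change was 0.78 in HT55 and 2.41 in SW948. On plain totals there were 19 rises in each line. By the interaction test 19 of the 23 had the larger value in SW948 and 1 the smaller, where 53.9% of all genes passed that test. MSMO1, an enzyme shortly after CYP51A1 in the pathway, had the largest rises (log2 fold changes of 1.92 and 4.77, adjusted p = 1.83e-05 and 1.10e-11). PMVK, a mevalonate pathway kinase, was the member that fell, with -0.91 and -1.68 (adjusted p = 0.000145 and 3.40e-09). Fatty acid targets had 7 rises and 1 fall of 10 in HT55 (median 0.68) and 8 and 2 in SW948 (median 1.58), with the same counts on plain totals, beside the same shares of rises over all genes. FASN, the fatty acid synthase, rose by 1.25 in HT55 and 1.599 in SW948 on the log2 scale (adjusted p = 3.35e-06 and 1.42e-09). ACSS2, which makes acetyl-CoA from acetate, rose by 0.61 and 2.76 (adjusted p = 0.000383 and 3.39e-11), and the elongase ELOVL6 fell in both lines (-0.44 and -0.35, adjusted p = 0.00243 and 0.0245). The ELOVL6 fall in SW948 did not pass without control replicate 2 (adjusted p = 0.0635), treated replicate 2 (0.0875) or treated replicate 3 (0.065).

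LXR and its targets had 3 rises and 1 fall of 8 in HT55 (median 0.071, or -0.094 on plain library totals) and 3 rises and 4 falls in SW948 (median -0.41). On plain totals the counts were 2 and 2 in HT55 and 1 and 5 in SW948. With TMM 4 of 8 changed in HT55 and 7 of 8 in SW948, near the 54.0% and 80.2% of all genes. ABCA1, the cholesterol efflux pump and usual readout of LXR, had a log2 fold change of 0.69 in HT55 that did not pass (adjusted p = 0.109) and fell in SW948 (-0.71, adjusted p = 0.0125). In 1 fit on all 16 libraries the ABCA1 calls were the other way round (adjusted p = 0.0442 in HT55 and 0.086 in SW948). The HT55 value also passed without control replicate 1 (adjusted p = 0.0403) or treated replicate 2 (0.0357). MYLIP, also on this list, rose in both lines (0.90 and 0.51, adjusted p = 0.000645 and 0.000119). ABCG1 had -0.23 in HT55, which did not pass (adjusted p = 0.549), and rose in SW948 (0.67, adjusted p = 0.00293). On plain totals the SW948 rises of MYLIP and ABCG1 did not pass (adjusted p = 0.0652 and 0.0836). LPCAT3, a phospholipid-remodelling enzyme, fell in both lines (-0.59 and -1.87, adjusted p = 0.00158 and 1.46e-09). RXRA, the partner receptor of LXR, rose in both (0.77 and 0.66, adjusted p = 8.80e-06 and 1.32e-06).

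**Figure D5:**
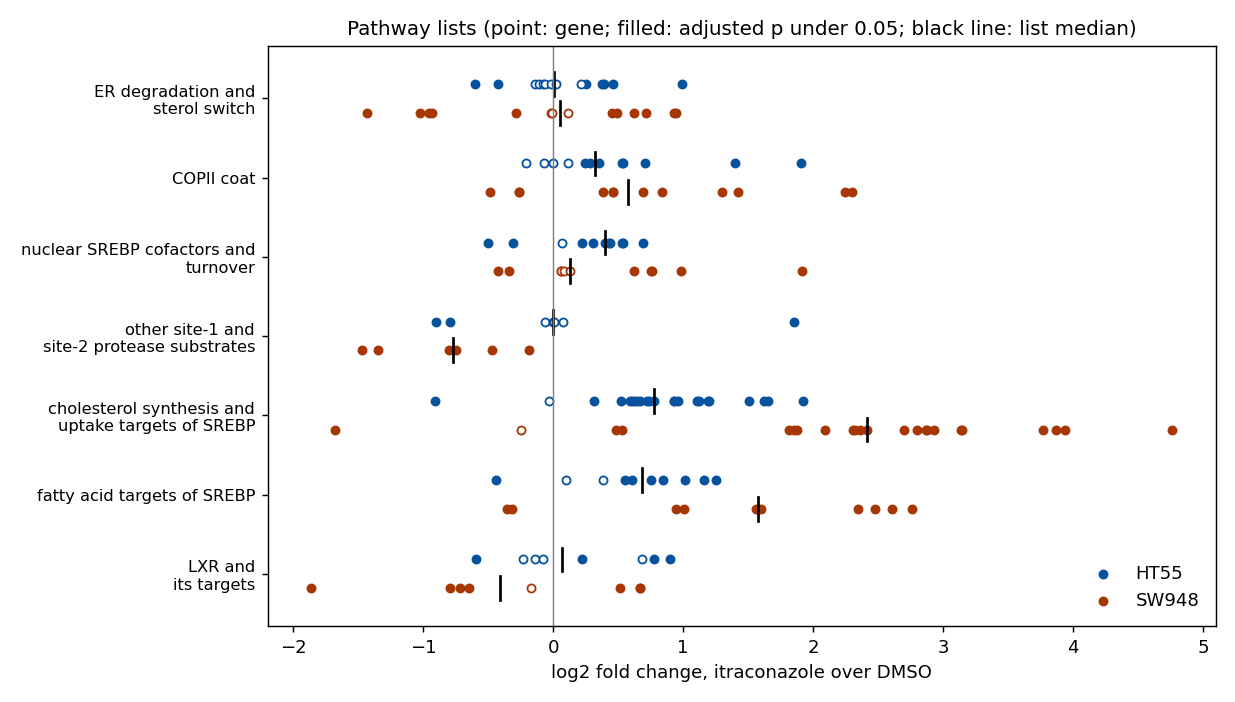
Log2 fold change with itraconazole of each gene in 7 pathway lists, with HT55 in blue and SW948 in brown, filled where the adjusted p was under 0.05, and the list median as a black line. The cholesterol list lies right of 0 except for a few genes, with medians of 0.78 and 2.41, and the protease substrates of SW948 all lie left of 0.

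Genes with the pattern most like each member were found by Pearson's r of log2 CPM over the 16 libraries, among 9206 genes. These values describe 16 libraries that share 2 lines and 2 treatments, and many genes reach a high r. Among the 5 genes most like INSIG1 were MSMO1 and DHCR7 (r = 0.994 each), both of sterol synthesis, and CAMLG and ATG16L1. Among the 5 most like SREBF2 were KCMF1 (r = 0.994), TMED9 and LDHA, and none of the cholesterol list was among them. SMAD6 was nearest to SCAP (r = 0.993), NUDC to SREBF1 (0.988), TP53INP1 to INSIG2 (0.982), GOLM2 to MBTPS1 (0.992) and PDSS2 to MBTPS2 (0.990). Between members the same measure was 0.952 for INSIG1 and SREBF2, 0.974 for SCAP and MBTPS1 and 0.942 for MBTPS1 and MBTPS2. It was -0.954 for SREBF1 and INSIG2 and 0.070 for INSIG1 and INSIG2.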

How the data were processed

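RNA was sequenced in 16 libraries, 4 for each line and treatment. The authors made TruSeq libraries, sequenced single-end reads of 50 bp and aligned them to hg19. The submitters' processing notes name TopHat, HTSeq and DESeq without versions, and the annotation release is not given in the sources used here. The deposited values are raw counts per gene, with 5 closing totals of reads not assigned to a gene, which were left out. Such totals are written by htseq-count, which leaves reads with several alignments out of every gene. Their total was 22.0% to 27.9% of the sum of gene counts and totals.

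Symbols and GRCh37 coordinates were taken from the GRCh37 version of GENCODE v44, with gene names filled in from a second table. Of 87 pathway list genes 86 were matched, ACACA not. PECAM1 was not matched among the cell markers. Promoters came from RefSeq on GRCh38.p14.

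Counts were tested with the edgeR 4.0.16 quasi-likelihood test in R 4.3.3 (TMM, filterByExpr, no covariate). Each fit held the 8 libraries compared, or all 16 for the interaction, and p-values were adjusted by Benjamini-Hochberg over all genes tested. The standard error was the absolute log2 fold change divided by the square root of F. CPM and RPKM used 1 TMM scaling over the 16 libraries, so that groups share a scale, and exon unions for length. Ratios used counts plus 0.5. Replicates differed by more than counting noise in every pair (mean chi-square per gene from 1.43 to 40.4).

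Alternatives were DESeq2 size factors, DESeq2 1.42.0, plain totals, no filter, at least 10 counts per library, 1 fit of 16 libraries, a replicate block, leaving out each library, and counts without mitochondrial genes and the 20 most counted genes. The members, lists and tests were chosen with earlier results of these data known. Genes named from a list are among the 2 largest rises and 2 largest falls past the threshold in each line, plus ABCA1, and a few genes that the rules name are not reported here. The genes most alike were the 5 with the highest r and a mean log2 CPM of at least 3.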

Additional observations from a re-analysis of the deposited data

Results flagged for a closer look

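In 44 groups of 4 libraries (7 members and 4 ratios in each of the 4 groups) the gap from the far library to its neighbour was divided by the group's range, and 5 groups passed Dixon's 95% critical value for 4 samples. Chance passes about 1 in 20 groups, but the 44 are not independent, since the ratios are built from the members' counts in the same libraries. Replicate 3 of the SW948 controls was the far library for SREBF2 (0.917 of the range), INSIG1 (0.910) and the ratio of INSIG1 to INSIG2 (0.913), in each case as the highest. For the ratio of MBTPS1 to MBTPS2 it was replicate 3 in HT55 controls (0.843, the highest) and replicate 1 in treated HT55 (0.927, the lowest).

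The change with itraconazole differed between the lines for all 7 members by the edgeR interaction test, whose percentage of all genes passing was 53.9%. The SW948 change minus the HT55 change was 4.37 for INSIG1, 0.95 for SREBF1 and 0.95 for SREBF2 on the log2 scale. It was -0.63 for INSIG2, -0.77 for SCAP, -0.85 for MBTPS1 and -1.70 for MBTPS2.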

How the results depend on the processing

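The counts of members that changed stayed within 1.5 times the reported counts under every alternative, between 5 and 6 in HT55, and 6 and 7 in SW948, when 1 library was left out. The replicate block, which takes the replicate number from the labels, left 5 members called in HT55 and 7 in SW948, and 6300 and 9973 of all genes. Libraries with the same number correlated between -0.025 and 0.12 in HT55 and between -0.0035 and 0.10 in SW948 (deviations from group means), not every library correlated best with its own number, and the numbers were not taken as pairs. For the HT55 ratio of MBTPS1 to MBTPS2 the block gave the same difference of 0.29 with all 4 same-numbered differences above 0. Leaving out 1 library gave 0.26 to 0.38 for this ratio, and the groups no longer overlapped without control replicate 3 or treated replicate 1. With the longest annotated transcript as the length, 16 of 28 places in the order of levels stayed. On plain library totals the HT55 value of MBTPS1 was -0.034. The SREBF2 difference between control lines lay between -0.048 and 0.026 when 1 library was left out, and was 0.0091, 0.00057 and 0.026 without HT55 control replicate 2, HT55 control replicate 4 and SW948 control replicate 3. Of 1670 values under alternatives, 1634 stayed the same. For changes and ratios this meant the same direction and the same call, and for counts it meant within 1.5 times. Many of these values come from fits that left out 1 library and so share most of their data. Where a call changed the cause was not tested. The reads carry no molecular identifiers, and the lowest member count was 54, for MBTPS2 in treated SW948.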
